A study of Mus musculus with 8 samples.

Results

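Serpins are a family of proteins that share 1 fold, most of which trap a serine protease by offering it a loop of their own as bait. When the protease cuts this reactive-centre loop, the serpin changes shape and holds the enzyme in an inactive complex. The liver makes most of the serpins of blood plasma, among them the inhibitors of elastase, thrombin, plasmin and complement proteases, while the clade B serpins stay inside cells, many of them in leukocytes and epithelia. Some members inhibit nothing and carry a hormone or fold a protein instead. The members described here are the 65 genes whose symbol begins with Serpin, a clade letter from a to i and a digit, of 25078 genes in the deposited tables. Clade A had 26 members, clade B 28, clade E 3, clades F and I 2 each, and clades C, D, G and H 1 each.

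RNA was sequenced from 8 livers of male C57/BL6 mice, all on a Western-style diet with added cholesterol, fructose and fat for 25 weeks, which produces fatty liver disease. Of these, 3 came from mice with 1 copy of Midn knocked out in the whole body, labelled as hemizygotes in the genotype and as Het in the titles, and 5 came from wild-type mice. Midn encodes midnolin, which delivers short-lived nuclear proteins to the proteasome, and the submitters' design text asks for its role in fatty liver disease. Midn transcript itself was 60.4, 39.0 and 51.6 CPM in the het-labelled livers, against 68.7, 39.8, 71.4, 41.7 and 29.2 CPM in the wild-type livers, a log2 fold change of 0.00 ± 0.30 (SE, adjusted p = 0.994 by edgeR), so the groups overlapped and the 3 livers are called het-labelled here. The removed stretch of Midn is not described in the labels, and reads from outside that stretch check nothing.

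Libraries held 17508221 to 24916239 counts. The CPM values below are counts scaled by library size and TMM factor, and RPKM values are the authors' own, divided by exon length, so that genes can be compared with each other. Rpph1, an RNA without a poly(A) tail, made up 0.229 to 0.399% of counts in het-labelled livers, 0.304 and 0.331% in wild-type livers 3 and 1, and 0.673 to 1.06% in wild-type livers 2, 4 and 5. Of 8 hepatocyte markers 7 were abundant in every library, while Ass1 did not exceed 0.669 CPM. In bulk tissue, fewer cells of a type and less RNA per cell cannot be told apart.

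The serpins of this liver covered a wide range of levels. By mean RPKM over the 8 livers 15 members stood at 100 RPKM or more and 29 at 1 RPKM or more. Serpina3k, a mouse relative of human antichymotrypsin, was the highest with 4652 ± 1279.9 RPKM in het-labelled and 2819 ± 933 RPKM in wild-type livers (SD, n = 3 and n = 5), rank 15 among all 25078 genes. Serpina1b, an antitrypsin gene, followed with 2016 ± 539.8 RPKM in het-labelled and 1506 ± 301 RPKM in wild-type livers. Below these came Serpina1c, Serpina1d and Serpina1e, then Serpinc1, the gene of antithrombin, with 551 ± 102 RPKM in het-labelled and 483 ± 54.2 RPKM in wild-type livers, and Serpina1a. All 5 of these antitrypsin genes and Serpinc1 ranked within the top 147 genes of the liver, and Serping1, the gene of the complement C1 inhibitor, ranked 225. At the other end 12 members had no count in any library: Serpina3j, Serpinb3a, Serpinb3b, Serpinb3c, Serpinb3d, Serpinb6d, Serpinb6e, Serpinb9g, Serpinb9h, Serpinb11, Serpinb13 and Serpini2. Another 7 had a summed count of 1 to 9 over the 8 libraries, namely Serpina1f, Serpina3a, Serpina16, Serpinb6c, Serpinb9d, Serpinb9f and Serpine3. These 19 members with a summed count below 10 were 4 of 26 in clade A, 13 of 28 in clade B, 1 of 3 in clade E and 1 of 2 in clade I.

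**Figure D1:**
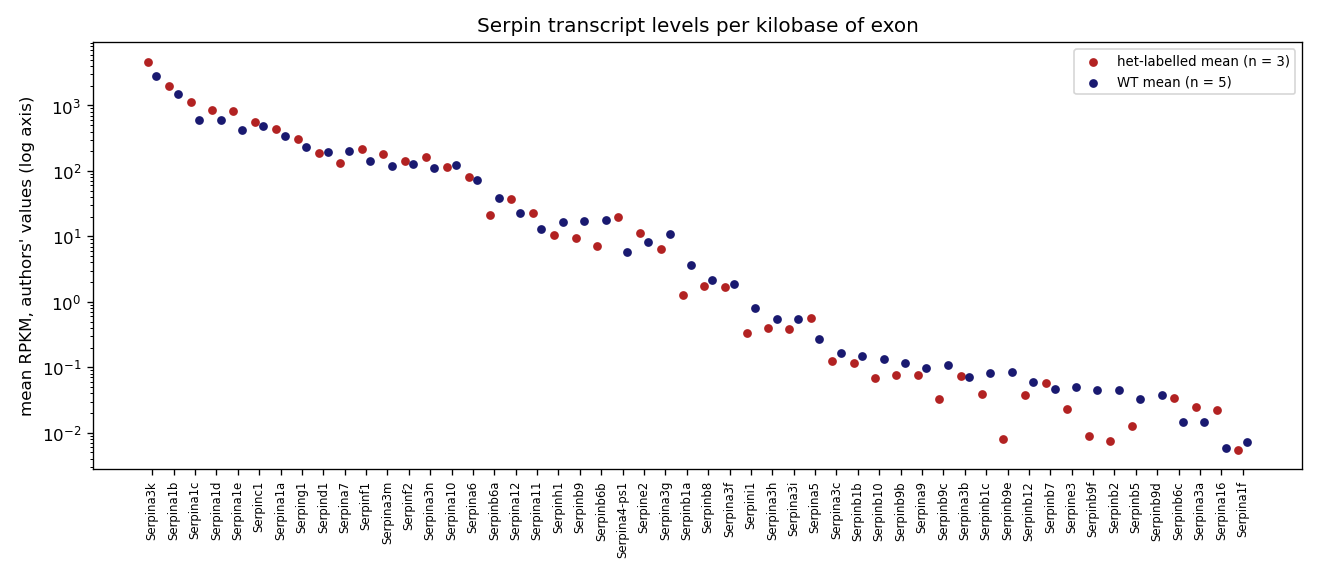
Mean RPKM (the authors' values, log axis) of 52 serpin genes with at least 1 count, in order of the mean over 8 livers; the left point of each gene is the mean of 3 het-labelled livers and the right point that of 5 wild-type livers. A mean of 0 is not drawn, which applies to the het-labelled mean of Serpinb9d. Serpina3k and the antitrypsin genes lead the order, and most clade B genes lie at its low end.

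Serpin genes lie in clusters, some of whose neighbours differ widely in level. The 25 clade A genes of chromosome 12 lie within 797.7 kb (chr12:103616675-104414329, mm10), and 18 of them passed the filter on low counts. There Serpina3k stood next to Serpina3j, which had no count at all, while the adjacent Serpina1a to Serpina1e all ranked within the top 147 genes. The 16 clade B genes of chromosome 13 span 1161 kb and 4 of them passed, and of the 12 on chromosome 1, within 747.8 kb, only Serpinb8 passed. In all 33 of the 65 members passed and were tested, 19 of clade A, 5 of clade B and 9 of clades C to I. The other 13 members with a summed count of at least 10 had at most 20 counts in any library and a mean over the 8 livers of at most 0.395 CPM, 10 of them in clade B.

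Together the 65 serpin genes took 2.28, 1.52 and 1.84% of all counts in het-labelled livers 1 to 3, against 1.51, 1.65, 1.27, 1.62 and 1.28% in wild-type livers 1 to 5. Het-labelled livers 1 and 3 lay above every wild-type liver and het-labelled liver 2 lay among them. Clade A made up nearly all of this, with 1.97, 1.26 and 1.57% of all counts in het-labelled livers 1 to 3, against 1.18, 1.34, 0.959, 1.37 and 1.05% in wild-type livers 1 to 5. Clade B was rare, with 0.00678, 0.0149 and 0.00700% of all counts in het-labelled livers 1 to 3, against 0.0138, 0.0276, 0.0166, 0.0191 and 0.0199% in wild-type livers 1 to 5, and there het-labelled livers 1 and 3 were below every wild-type liver while liver 2 was within their range. No test was made of these sums.

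No serpin gene passed the threshold between the genotypes. edgeR called 0 of the 33 tested members at an adjusted p under 0.05, as it called 0.0% of the 14438 genes tested, and the smallest adjusted p among the members was 0.259. At an unadjusted p under 0.05 there were 7 members higher, where 10.3% of all genes were, and 5 lower, where 5.43% of all genes were. The median log2 fold change was 0.22 over the 33 members, against 0.00 over all genes tested. It was 0.53 over the 19 tested members of clade A and −0.84 over the 5 of clade B. DESeq2 called 3 of 33 members, all lower, where it called 0.528% of 14406 genes lower and 0.694% higher. These were Serpina3g, Serpinb1a and Serpinb6b. The number higher at an unadjusted p under 0.05 turned on single livers: it was 2 without het-labelled liver 1, 4 without het-labelled liver 3, 11 without het-labelled liver 2, 3 without wild-type liver 2 and 4 without wild-type liver 3. The number lower was 3 without het-labelled liver 1 and 3 without het-labelled liver 3.

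**Figure D2:**
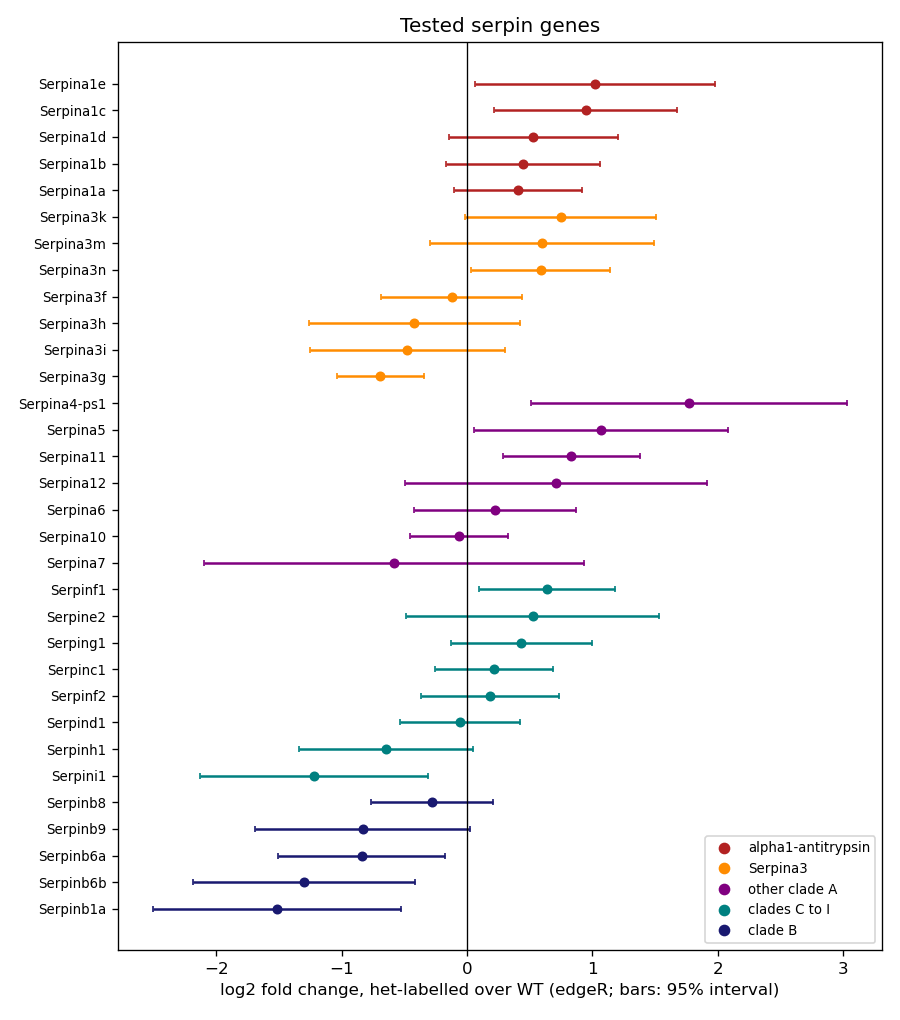
Log2 fold change of het-labelled over wild-type livers (horizontal axis) for 32 tested serpin genes, by edgeR with 95% intervals, grouped by colour as antitrypsin genes, Serpina3 genes, other clade A genes, clades C to I and clade B. All 5 antitrypsin estimates are above 0 and all 5 clade B estimates below 0, and 12 of the 32 intervals leave out 0 before any adjustment.

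The antitrypsin genes come first, since mice have several copies of what is 1 gene in humans. Antitrypsin is the main plasma inhibitor of neutrophil elastase. Its copies in mice vary more per base in the reactive-centre loop than elsewhere, and this loop sets the protease that is trapped. Over 1239 aligned bases of reading frame the 5 expressed genes were 96.3 to 98.5% identical in pairs. In the 75 bases that encode the loop and its flanks 18 positions (24.0%) varied, against 68 of 1164 positions (5.84%) in the rest of the frame. Those stretches, from GENCODE transcripts on mm10, minus strand, are printed 5′ to 3′ with the varying bases in capitals:
Serpina1a chr12:103853756-103853830: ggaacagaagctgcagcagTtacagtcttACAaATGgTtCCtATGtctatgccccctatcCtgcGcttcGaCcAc
Serpina1b chr12:103728323-103728397: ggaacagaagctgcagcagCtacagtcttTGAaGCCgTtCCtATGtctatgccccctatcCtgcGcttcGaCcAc
Serpina1c chr12:103895093-103895167: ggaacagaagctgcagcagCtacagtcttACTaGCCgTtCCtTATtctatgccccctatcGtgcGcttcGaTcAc
Serpina1d chr12:103763761-103763835: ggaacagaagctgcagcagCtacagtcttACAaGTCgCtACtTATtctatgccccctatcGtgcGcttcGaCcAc
Serpina1e chr12:103947099-103947173: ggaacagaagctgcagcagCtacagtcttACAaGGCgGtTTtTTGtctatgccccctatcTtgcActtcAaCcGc
Within this stretch pairs of genes differed at 5 positions (Serpina1c and Serpina1d) to 12 (Serpina1e against Serpina1a and against Serpina1c). The copies are so alike that 50-base windows of 1 whole transcript, loop included, often occur in another gene. This held for 67.4% of windows of Serpina1a, 35.8% of Serpina1b, 74.2% of Serpina1c, 50.9% of Serpina1d and 35.6% of Serpina1e. The sources used here do not say how such reads were counted, so the values of single copies are uncertain.

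All 5 antitrypsin genes were above every wild-type liver in het-labelled livers 1 and 3 and within the wild-type range in het-labelled liver 2. Of all 33 tested members, 16, 2 and 14 were above every wild-type liver in het-labelled livers 1, 2 and 3. The share of all genes above every wild-type liver was not counted for single het-labelled livers, so these counts have no background. With all 3 het-labelled livers above every wild-type liver there was 1 member, where 7.55% of all genes were. Serpina1c had 2467, 795 and 1828 CPM in the het-labelled livers, against 802, 893, 787, 1084 and 825 CPM in the wild-type livers. Its log2 fold change was 0.95 ± 0.32 (SE, adjusted p = 0.268 by edgeR), and het-labelled liver 2 lay among the lowest wild-type values. Serpina1e had 2057, 486 and 992 CPM in the het-labelled livers, against 889, 511, 547, 545 and 405 CPM in the wild-type livers, a log2 fold change of 1.02 ± 0.42 (SE, adjusted p = 0.299 by edgeR). Het-labelled liver 1 had more Serpina1e than any other liver, and without it the log2 fold change was 0.36. Serpina1b, the copy with the most counts, an order that the unknown treatment of shared reads may change, had 3512, 2057 and 3415 CPM in the het-labelled livers, against 1906, 2770.3, 1511, 2498 and 2302 CPM in the wild-type livers, a log2 fold change of 0.45 ± 0.27 (SE, adjusted p = 0.423 by edgeR). Serpina1d had 1736, 689 and 1436 CPM in the het-labelled livers, against 884, 1105, 661, 882 and 920.4 CPM in the wild-type livers, a log2 fold change of 0.53 ± 0.30 (SE, adjusted p = 0.395 by edgeR). The groups overlapped in each of these genes, since het-labelled liver 2 lay within the wild-type range. Serpina1a had 1153, 599 and 934 CPM in the het-labelled livers, against 759.8, 699, 681, 658 and 576 CPM in the wild-type livers, with a spread among wild-type livers of 1.32-fold from lowest to highest, a log2 fold change of 0.41 ± 0.23 (SE, adjusted p = 0.389 by edgeR). None of the 5 passed the adjusted threshold. At an unadjusted p under 0.05, 2 were higher, Serpina1c and Serpina1e, as were 10.3% of all genes. The 5 copies share sequence, so they are not 5 independent observations.

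A sum over the copies does not depend on how shared reads were split among them, though it does if they were dropped. The 6 Serpina1 genes took 0.952, 0.491 and 0.733% of all counts in het-labelled livers 1 to 3, against 0.596, 0.618, 0.533, 0.541 and 0.447% in wild-type livers 1 to 5. The sixth, Serpina1f, added 4 counts in all. The shares of single copies in this sum are as uncertain as their values. Of the sum, Serpina1b held 38.8 ± 6.21% in het-labelled and 41.7 ± 5.10% in wild-type livers (SD, n = 3 and n = 5). Serpina1c held 20.3 ± 2.81% in het-labelled and 16.9 ± 1.95% in wild-type livers, and Serpina1e 13.6 ± 4.54% in het-labelled and 11.2 ± 3.75% in wild-type livers. Each share differed between the genotypes by less than the larger of its SDs, except that of Serpina1c, which differed by more than either. In het-labelled liver 1 the Serpina1e share was 18.8%, with 17.0% in wild-type liver 1 and 8.05 to 13.1% in the other livers. Het-labelled livers 1 and 3 were also above every wild-type liver in the summed level of the 8 hepatocyte markers. That sum was 97159.8, 60943 and 89072 CPM in het-labelled livers 1 to 3, against 51707 to 66130.0 CPM in wild-type livers. Alb was its largest part, at 53200, 29300 and 44100 CPM in het-labelled livers 1 to 3. Of the single markers, Alb, Ttr, Apoa1 and Cyp2e1 were above every wild-type liver in both livers 1 and 3. Apob, Tat, Cps1 and Ass1 were not. Of the 7 hepatocyte markers tested 2 were higher at an unadjusted p under 0.05, as were 10.3% of all genes. DESeq2 called 2 of the 7, Cyp2e1 (adjusted p = 4.49e-04) and Ttr (adjusted p = 0.0477), both higher, where it called 0.694% of 14406 genes higher. The 5 bile duct markers, with which het-labelled liver 2 also stood apart from livers 1 and 3, summed to 146, 735 and 157 CPM in het-labelled livers 1 to 3, against 404 to 868 CPM in wild-type livers. Most of that sum was Spp1, at 130, 689 and 141 CPM in het-labelled livers 1 to 3. In het-labelled livers 1 and 3 Spp1 and Epcam were below every wild-type liver, while Krt7, Krt19 and Sox9 overlapped the wild-type livers. The part of hepatocytes or bile duct cells in the serpin values was not tested.

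**Figure D3:**
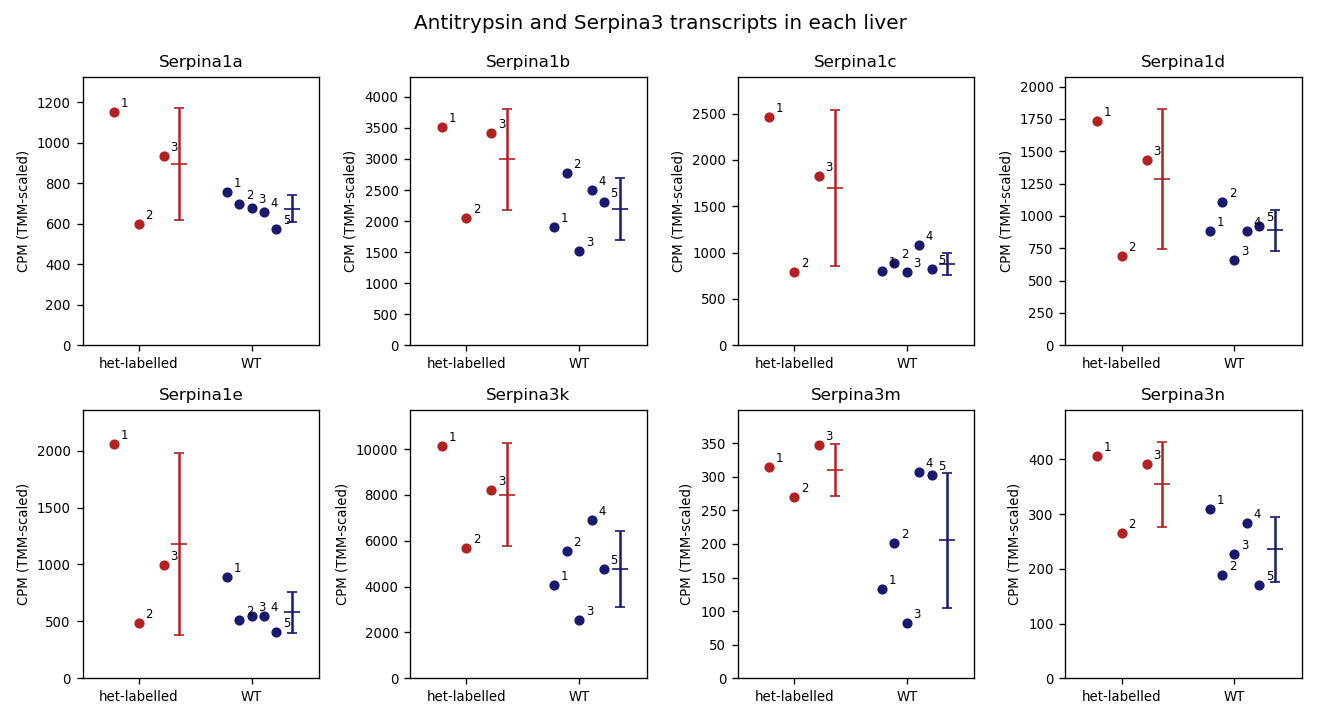
TMM-scaled CPM (vertical axis, from 0) of 5 antitrypsin genes and 3 Serpina3 genes in each liver; points carry the liver's number, het-labelled livers to the left of wild-type livers, and bars give mean ± SD. Het-labelled livers 1 and 3 lie above all wild-type livers for every antitrypsin gene, and het-labelled liver 2 lies among them.

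The starts of the antitrypsin genes are alike too. A window of 150 bases around the HNF1 half-site GTTAAT, chosen with the values known, was compared with that of Serpina1b. It differed at 5 positions in Serpina1a, 6 in Serpina1c, 9 in Serpina1d and 3 in Serpina1e. The part of this site in the levels was not tested. HNF1 is a transcription factor of hepatocytes long known to drive human SERPINA1. The windows come from RefSeq on GRCm38.p6, minus strand, and capitals mark the half-site:
Serpina1b chr12:103738156-103738305: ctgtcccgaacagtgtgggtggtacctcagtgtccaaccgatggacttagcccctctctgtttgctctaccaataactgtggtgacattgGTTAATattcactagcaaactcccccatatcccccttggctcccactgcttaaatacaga
Serpina1a chr12:103863581-103863730: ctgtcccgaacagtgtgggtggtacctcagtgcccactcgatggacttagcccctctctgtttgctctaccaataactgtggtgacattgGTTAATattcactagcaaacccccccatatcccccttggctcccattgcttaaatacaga
Serpina1c chr12:103904918-103905067: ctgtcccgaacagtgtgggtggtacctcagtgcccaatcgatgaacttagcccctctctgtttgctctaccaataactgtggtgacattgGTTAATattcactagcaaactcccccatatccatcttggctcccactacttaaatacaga
Serpina1d chr12:103773590-103773739: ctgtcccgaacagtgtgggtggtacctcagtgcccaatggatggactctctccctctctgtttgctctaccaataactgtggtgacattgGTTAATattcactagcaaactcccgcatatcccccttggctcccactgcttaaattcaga
Serpina1e chr12:103956916-103957065: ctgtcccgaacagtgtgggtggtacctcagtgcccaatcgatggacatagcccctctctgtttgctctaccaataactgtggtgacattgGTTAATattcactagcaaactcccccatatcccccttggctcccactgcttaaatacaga
Serpina7 chrX:139085234-139085383: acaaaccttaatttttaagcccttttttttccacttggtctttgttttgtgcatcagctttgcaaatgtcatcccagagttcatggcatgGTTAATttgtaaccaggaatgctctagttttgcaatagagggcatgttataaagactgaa
The last is the window of Serpina7 on chromosome X, whose values are given below. RefSeq promoter windows around the gene start were matched by symbol for 54 of the 65 members. GTTAAT or its reverse complement ATTAAC stood in those of 11 members (20.4%), against 8.24% of 27025 genes. Of the 11, 5 are the near-identical antitrypsin copies, which are not independent of each other, and Serpinb3b, Serpinb3d and Serpini2 had no count in any library. The palindrome TTCNNNGAA, bound by STAT proteins, stood in 8 of 54 (14.8%), against 9.55% of all genes, among them Serpina11, Serpina3f and Serpina3g. A match is a run of letters, and no binding was measured.

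The Serpina3 genes, 11 in this table, are the mouse copies of human antichymotrypsin. The loop stretches of the 3 with the highest levels (GENCODE, mm10, plus strand) are printed with the shared hinge in lower case and the bases after it, from where they first differ, in capitals:
Serpina3k chr12:104345269-104345340: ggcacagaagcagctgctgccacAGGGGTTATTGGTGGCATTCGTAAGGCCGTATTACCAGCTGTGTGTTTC
Serpina3m chr12:104393769-104393846: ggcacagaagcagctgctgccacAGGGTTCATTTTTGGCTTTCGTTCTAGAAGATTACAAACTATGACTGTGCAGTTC
Serpina3n chr12:104413448-104413525: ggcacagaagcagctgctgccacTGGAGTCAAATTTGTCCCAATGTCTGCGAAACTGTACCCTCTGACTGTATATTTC
Serpina3k made up 91.9 ± 1.12% of Serpina3 counts in het-labelled and 90.6 ± 1.80% in wild-type livers (SD, n = 3 and n = 5). It had 10144, 5678 and 8210.1 CPM in the het-labelled livers, against 4061, 5572, 2533, 6926 and 4765 CPM in the wild-type livers, a log2 fold change of 0.75 ± 0.34 (SE, adjusted p = 0.322 by edgeR). Het-labelled livers 1 and 3 were the highest of the 8, and het-labelled liver 2 lay below wild-type liver 4. Serpina3n, an acute-phase gene whose product inhibits granzyme B, had 406, 265 and 392 CPM in the het-labelled livers, against 308, 188, 228, 285 and 170.3 CPM in the wild-type livers, a log2 fold change of 0.59 ± 0.24 (SE, adjusted p = 0.302 by edgeR). Here too het-labelled livers 1 and 3 exceeded every wild-type liver. Serpina3m had 315, 270.2 and 347 CPM in the het-labelled livers, against 133, 201, 82.3, 307 and 303 CPM in the wild-type livers, a log2 fold change of 0.60 ± 0.40 (SE, adjusted p = 0.452 by edgeR). Wild-type livers 4 and 5 reached the level of the het-labelled livers in Serpina3m, and wild-type liver 3 had the least.

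Serpina3g was lower in every het-labelled liver, unlike Serpina3k, Serpina3m and Serpina3n. This gene, also known as Spi2A, encodes an inhibitor of lysosomal cathepsins that works inside lymphoid and myeloid cells. It had 14.5, 15.4 and 16.4 CPM in the het-labelled livers, against 22.5, 30.1, 20.8, 25.6 and 25.6 CPM in the wild-type livers, so that the groups did not overlap. Of all genes tested, 2.32% had every het-labelled liver below every wild-type liver. The log2 fold change was −0.69 ± 0.15 (SE, adjusted p = 0.259 by edgeR), the smallest unadjusted p among the members, and DESeq2 gave −0.73 (adjusted p = 0.00769). It ran from −0.79 to −0.64 when any 1 liver was left out. The row of Serpina3g (chr12:104214454-104241944) contains that of Serpina3f (chr12:104214544-104221129) on the same strand, so reads of the pair may be split between them. The log2 fold change was −0.12 for Serpina3f, −0.42 for Serpina3h and −0.48 for Serpina3i, and the groups overlapped in all 3. Among the 11 Serpina3 genes 7 were tested, of which Serpina3n was higher and Serpina3g lower at an unadjusted p under 0.05. At that level 10.3% of all genes were higher and 5.43% lower.

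The other clade A genes include carriers and plasma inhibitors. Serpina7, the gene of thyroxine-binding globulin, which carries thyroid hormone in blood, had 214, 454 and 319.6 CPM in the het-labelled livers, against 171, 537, 103, 626 and 1025 CPM in the wild-type livers. Its wild-type values spanned 9.97-fold, with livers 2, 4 and 5, those with the higher Rpph1 share, all above livers 1 and 3, and the het-labelled livers lay between. The log2 fold change was −0.58 ± 0.67 (SE, adjusted p = 0.648 by edgeR) over all livers, 1.21 (adjusted p = 0.103 by edgeR) against wild-type livers 1 and 3 alone, and −1.19 (adjusted p = 0.0472 by edgeR) against wild-type livers 2, 4 and 5 alone. The direction for Serpina7 thus depended on which wild-type livers were compared. Serpina12, the gene of the adipokine vaspin, named after its values were seen, had 137, 152 and 140.2 CPM in the het-labelled livers, against 48.2, 50.5, 27.6, 142 and 169 CPM in the wild-type livers. Its 3 het-labelled livers were close together, and wild-type livers 1, 2 and 3 were below them while livers 4 and 5 were not. The log2 fold change was 0.71 ± 0.53 (SE, adjusted p = 0.501 by edgeR) over all livers, 1.85 (adjusted p = 0.0635 by edgeR) against wild-type livers 1 and 3 alone, and 0.20 (adjusted p = 0.732 by edgeR) against wild-type livers 2, 4 and 5 alone. Serpina6, the gene of corticosteroid-binding globulin, also named after its values were seen, showed the reverse split, with 162, 121 and 130.0 CPM in the het-labelled livers, against 185, 83.3, 143, 86.2 and 92.0 CPM in the wild-type livers, a log2 fold change of 0.22 ± 0.29 (SE, adjusted p = 0.681 by edgeR). Wild-type livers 1 and 3 were its highest wild-type livers, and the log2 fold change was −0.02 with library size alone and −0.32 (adjusted p = 0.269 by edgeR) against that pair.

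Serpina4-ps1 and Serpina11 had the smallest p among the higher members. Serpina4-ps1, a pseudogene of the kallistatin gene, had 42.8, 17.7 and 22.3 CPM in the het-labelled livers, against 9.10, 12.5, 11.1, 6.26 and 1.26 CPM in the wild-type livers, and every het-labelled liver was above every wild-type liver. Of all genes tested, 7.55% had that pattern. The log2 fold change was 1.77 ± 0.56 (SE, adjusted p = 0.264 by edgeR), with 95% limits of 0.51 and 3.04, and 1.32 without het-labelled liver 1. Serpina11 had 49.3, 23.3 and 34.2 CPM in the het-labelled livers, against 22.4, 17.9, 20.6, 23.8 and 15.0 CPM in the wild-type livers, a log2 fold change of 0.83 ± 0.24 (SE, adjusted p = 0.259 by edgeR). Het-labelled liver 2 had only slightly less Serpina11 than wild-type liver 4, and the other 2 het-labelled livers were the highest. Of its 50-base windows 44.4% also occur in the transcript of Gm28577. Serpina10, the gene of the protein Z-dependent inhibitor of factor Xa, differed by −0.07, with 95% limits of −0.46 and 0.33. Serpina5, the protein C inhibitor, was at most 2.15 CPM in any liver, with 137 counts in all. It was 1 of the 7 members higher at an unadjusted p under 0.05. Its log2 fold change was 1.07 (adjusted p = 0.303 by edgeR), and 0.49 without het-labelled liver 2.

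**Figure D4:**
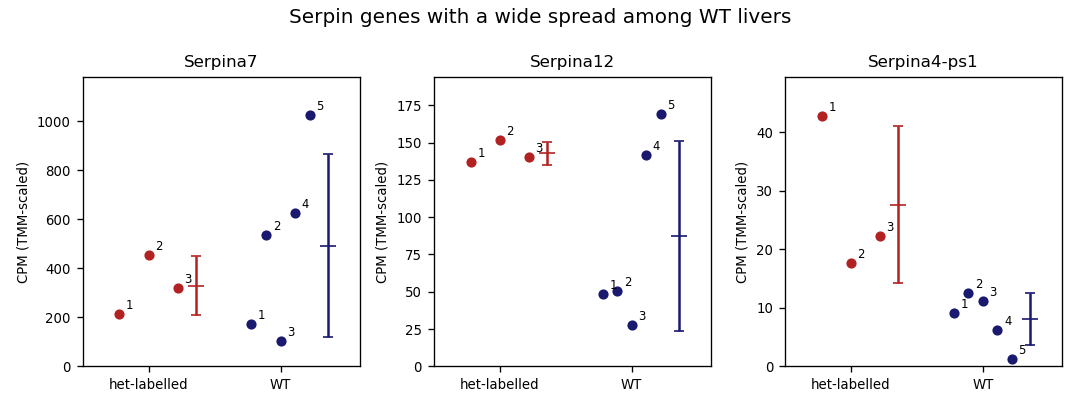
TMM-scaled CPM (vertical axis, from 0) of 3 serpin genes whose wild-type livers spanned 6.12-fold to 9.97-fold; points carry the liver's number, het-labelled livers to the left of wild-type livers, and bars give mean ± SD. Serpina7 splits the wild-type livers into 2, 4 and 5 above and 1 and 3 below, Serpina12 has livers 4 and 5 above the other 3, and Serpina4-ps1 is lowest in wild-type liver 5.

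None of the serpins of coagulation, fibrinolysis and complement passed the adjusted threshold, and their groups overlapped. Serpinc1, the gene of antithrombin, the main inhibitor of thrombin, had 1405, 969.8 and 1346 CPM in the het-labelled livers, against 1051, 1179, 827, 1109 and 1168 CPM in the wild-type livers. Its log2 fold change was 0.22 ± 0.21 (SE, adjusted p = 0.586 by edgeR), with 95% limits of −0.25 and 0.69, which leave out a doubling or a halving. Serpind1, the gene of heparin cofactor II, had 478, 386 and 418 CPM in the het-labelled livers, against 392, 604, 337, 439 and 444 CPM in the wild-type livers, a log2 fold change of −0.05 ± 0.21 (SE, adjusted p = 0.902 by edgeR) with limits of −0.53 and 0.43. Its row lies within Pi4ka on the opposite strand. Serping1, which inhibits the first proteases of the complement cascade and plasma kallikrein, had 704, 437 and 594 CPM in the het-labelled livers, against 591, 370.0, 471, 395 and 313 CPM in the wild-type livers, a log2 fold change of 0.43 ± 0.25 (SE, adjusted p = 0.401 by edgeR). Serpinf2, the plasmin inhibitor antiplasmin, differed by 0.18, with limits of −0.37 and 0.73, and by −0.06 with library size alone. Serpine2, protease nexin-1, which inhibits thrombin and plasminogen activators, differed by 0.52 (limits −0.48 and 1.53), by −0.10 against wild-type livers 1 and 3 alone and by 1.03 against wild-type livers 2, 4 and 5 alone.

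Serpinf1, Serpinh1 and Serpini1 work in vessels, collagen folding and neurons. Serpinf1, the gene of the secreted antiangiogenic factor PEDF, which inhibits no protease, had 396, 239 and 373 CPM in the het-labelled livers, against 295, 177, 227, 211 and 168 CPM in the wild-type livers. Het-labelled livers 1 and 3 were highest and liver 2 lay within the wild-type range, and the log2 fold change was 0.64 ± 0.24 (SE, adjusted p = 0.276 by edgeR). Serpinh1, or HSP47, the collagen chaperone of the endoplasmic reticulum, had 25.3, 37.9 and 16.6 CPM in the het-labelled livers, against 39.0, 42.6, 61.9, 32.8 and 31.3 CPM in the wild-type livers. Its log2 fold change was −0.64 ± 0.31 (SE, adjusted p = 0.338 by edgeR), and wild-type liver 3 was the highest. The 6 stellate cell markers, from the cells that make most liver collagen, summed to 617 to 1124 CPM in het-labelled and 812 to 972 CPM in wild-type livers. Of the single markers only Reln did not overlap, at 207 to 260 CPM in het-labelled and 143 to 205 CPM in wild-type livers. Every het-labelled liver was above every wild-type liver in 7.55% of all genes. The other stellate markers, Col1a1 among them, overlapped. The part of stellate cells in Serpinh1 was not tested. Serpini1, the gene of neuroserpin, was rare, with 17, 30 and 20 counts in het-labelled livers, against 51, 65, 102, 37 and 25 counts in wild-type livers. Its log2 fold change was −1.22 ± 0.40 (SE, adjusted p = 0.265 by edgeR), and wild-type liver 5 overlapped the het-labelled livers in CPM.

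Clade B serpins had estimates below 0 in all 5 tested members, and 3 of the 5 were lower at an unadjusted p under 0.05, as were 5.43% of all genes. Against wild-type livers 1 and 3 alone 1 of the 5 was. Serpinb1a, an inhibitor of neutrophil elastase and cathepsin G inside neutrophils and other cells, had 2.67, 2.31 and 2.67 CPM in the het-labelled livers, against 4.53, 15.0, 4.55, 5.22 and 7.34 CPM in the wild-type livers. The groups did not overlap, the log2 fold change was −1.52 ± 0.44 (SE, adjusted p = 0.259 by edgeR), and DESeq2 gave −1.55 (adjusted p = 0.0346). Wild-type liver 2 was far above the rest, and without it the log2 fold change was −1.13. Serpinb6b had 10.3, 25.2 and 11.5 CPM in the het-labelled livers, against 26.9, 66.2, 30.6, 35.2 and 33.9 CPM in the wild-type livers, again without overlap. Its log2 fold change was −1.30 ± 0.39 (SE, adjusted p = 0.259 by edgeR), and DESeq2 gave −1.33 (adjusted p = 0.0498). Het-labelled liver 2 was close to the lowest wild-type liver, and livers 1 and 3 were well below it. Serpinb6a, an inhibitor of trypsin-like proteases and cathepsin G, had 30.6, 58.1 and 34.4 CPM in the het-labelled livers, against 50.3, 96.2, 53.1, 81.4 and 86.5 CPM in the wild-type livers, a log2 fold change of −0.84 ± 0.29 (SE, adjusted p = 0.268 by edgeR). Here het-labelled liver 2 was above wild-type livers 1 and 3. The row of Serpinb6a overlaps Nqo2, Ripk1 and 1110046J04Rik on the opposite strand.

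Serpinb9, the inhibitor that protects cytotoxic lymphocytes from their own granzyme B, named after its values were seen, had 29.0, 46.0 and 26.1 CPM in the het-labelled livers, against 33.2, 80.6, 33.2, 67.1 and 85.9 CPM in the wild-type livers, a log2 fold change of −0.83 ± 0.38 (SE, adjusted p = 0.323 by edgeR). It split the wild-type livers as Serpina7 did, with livers 2, 4 and 5 above livers 1 and 3. Serpinb1a, Serpinb6a and Serpinb6b did so too, while Serpinb8 did not. Serpinb8 differed by −0.28 (limits −0.76 and 0.21). Summed over its 28 members, clade B stood at 77.8, 140.2 and 82.2 CPM in het-labelled livers, against 122, 267, 131, 200.3 and 224 CPM in wild-type livers. In this sum too wild-type livers 2, 4 and 5 were above livers 1 and 3. Some leukocyte markers were lower in het-labelled livers as well. The 5 T and NK cell markers summed to 6.77 to 11.2 CPM in het-labelled and 12.1 to 19.2 CPM in wild-type livers, without overlap, and 2 of 5 tested were lower at an unadjusted p under 0.05, as were 5.43% of all genes. Among the single T and NK cell markers only Klrk1 did not overlap, at 3.69, 4.79 and 4.72 CPM in het-labelled livers, against 5.77 to 13.9 CPM in wild-type livers. Klrk1 split the wild-type livers in the same way as Serpinb9. Every het-labelled liver was below every wild-type liver in 2.32% of all genes, a share for single genes and not for sums. The 6 macrophage markers summed to 360.1 to 546 CPM in het-labelled and 388 to 782 CPM in wild-type livers, with 0 of 6 at that level, and the 4 neutrophil markers to 6.95 to 22.1 CPM in het-labelled and 5.97 to 50.6 CPM in wild-type livers, with Ly6g and Mpo at or near 0. The part of these cells in the clade B values was not tested.

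**Figure D5:**
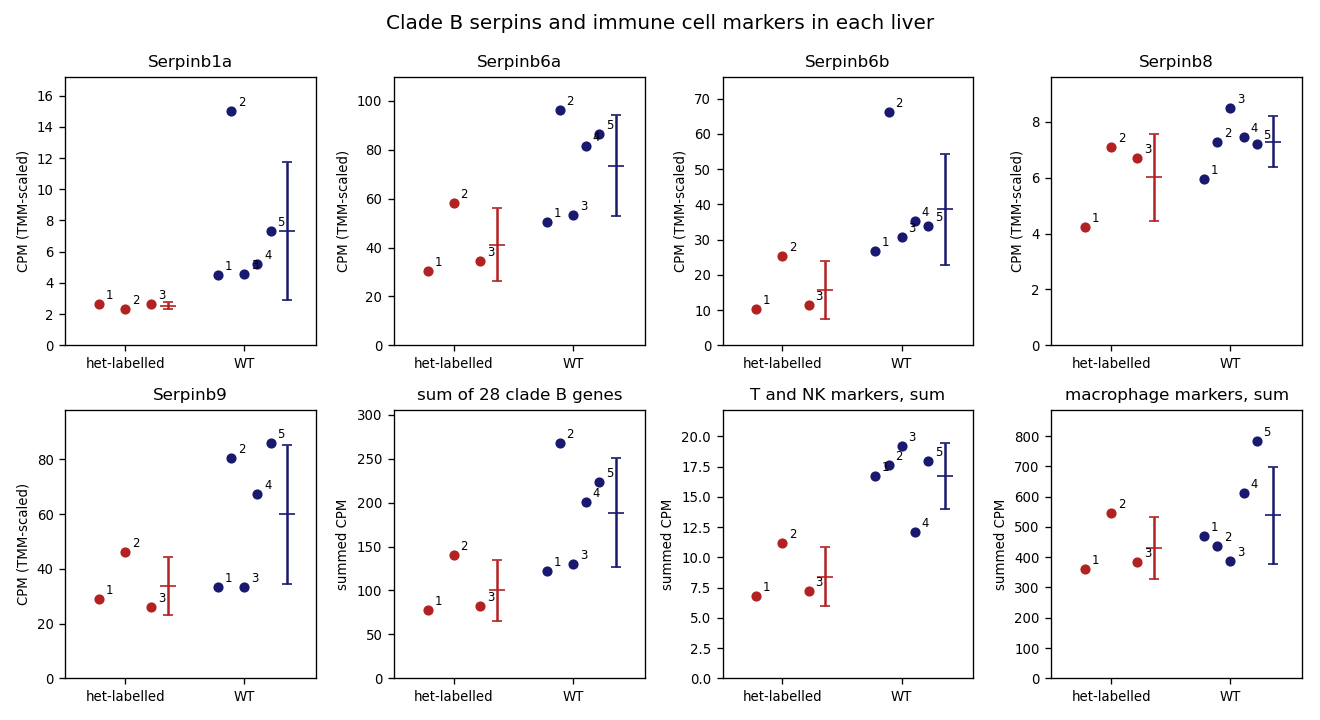
TMM-scaled CPM (vertical axes, from 0) of the 5 tested clade B genes, and summed CPM of the 28 clade B genes, 5 T and NK cell markers and 6 macrophage markers in each liver; points carry the liver's number, het-labelled livers to the left of wild-type livers, and bars give mean ± SD. Serpinb1a, Serpinb6b and the T and NK cell sum do not overlap between the genotypes, and the other panels do.

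The number of serpin genes called depended on which wild-type livers entered the comparison. The subsets of wild-type livers are not in the labels. They follow the Rpph1 share in these same data, so the adjusted p-values below are description only. Against wild-type livers 2, 4 and 5 alone edgeR called 8 of the 33 members at an adjusted p under 0.05, 2 higher, where 8.40% of genes were called higher, and 6 lower, where 10.5% of genes were called lower. The higher members were Serpinf1 at 0.81 (adjusted p = 0.0371 by edgeR) and Serpina6 at 0.61 (adjusted p = 0.0292 by edgeR). The lower members were Serpina3g at −0.86 (adjusted p = 0.0283 by edgeR), Serpina7, Serpinb1a at −1.90 (adjusted p = 0.0283 by edgeR), Serpinb6a at −1.14 (adjusted p = 0.0284 by edgeR), Serpinb6b at −1.57 (adjusted p = 0.0400 by edgeR) and Serpinb9 at −1.25 (adjusted p = 0.0283 by edgeR). Against wild-type livers 1 and 3 alone edgeR called 0 of 33, where it called 0.0956% of genes higher and 0.0478% lower, with 6 members higher and 4 lower before adjustment (p under 0.05). At that unadjusted level 16.7% of all genes were higher and 14.9% lower, so the members were near the background. There Serpinb9 differed by −0.04 (adjusted p = 0.932 by edgeR) and Serpina3g by −0.55 (adjusted p = 0.0673 by edgeR). Both comparisons share the het-labelled livers, and the labels name no batch. Against wild-type livers 1 and 3 the antitrypsin estimates were 0.25 for Serpina1a, 0.74 for Serpina1b, 1.02 for Serpina1c, 0.67 for Serpina1d and 0.64 for Serpina1e. Against wild-type livers 2, 4 and 5 they were 0.42, 0.19, 0.81, 0.36 and 1.22 for the same genes.

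Genes that work with the serpins were read from 5 further lists, and none of their members passed edgeR's adjusted threshold. DESeq2 called 1 of them, Pdia4, higher, where it called 0.694% of 14406 genes higher. The counts below are of members past an unadjusted p of 0.05, a level at which 10.3% of all genes were higher and 5.43% lower, and they turned on single livers. Of 20 tested target proteases 10 were higher and 2 lower, with a median log2 fold change of 0.46. The number higher was 1 without het-labelled liver 1, 4 without het-labelled liver 3, 5 without wild-type liver 2, 2 with library size alone and 3 against wild-type livers 1 and 3 alone. The number lower was 0 without het-labelled liver 1 and 0 without het-labelled liver 3. F11, the gene of coagulation factor XI, which antithrombin and the C1 inhibitor control, had 53.5 ± 15.0 CPM in het-labelled and 29.7 ± 6.44 CPM in wild-type livers (SD, n = 3 and n = 5), a log2 fold change of 0.85. Masp2, a lectin pathway protease inhibited by Serping1, had 253 ± 68.3 CPM in het-labelled and 154 ± 27.9 CPM in wild-type livers, a log2 fold change of 0.72.

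Of 11 cofactors and receptors 2 were higher, near the share of all genes, and 0 lower, with a median of 0.27. The number higher ran from 0 without het-labelled liver 1 to 4 without het-labelled liver 2 or without wild-type liver 1, was 1 when het-labelled liver 3 or wild-type liver 2, 3 or 5 was left out, and was 0 with library size alone. The 2 were Sdc4, a heparan sulfate proteoglycan, at 362 ± 68.2 CPM in het-labelled and 249 ± 11.7 CPM in wild-type livers (log2 fold change 0.54), and Proz, the cofactor of Serpina10, at 318 ± 67.7 CPM in het-labelled and 234 ± 25.5 CPM in wild-type livers (log2 fold change 0.44). Of 12 genes of folding and quality control in the secretory pathway, through which antitrypsin leaves the cell, 3 were higher and 0 lower, with a median of 0.35. The number higher was 1 without het-labelled liver 1, 5 without het-labelled liver 2 and 0 with library size alone. The disulfide isomerase gene Pdia4 had 206 ± 18.1 CPM in het-labelled and 132 ± 20.6 CPM in wild-type livers (log2 fold change 0.64, DESeq2 adjusted p = 0.0498), and the lectin chaperone gene Calr differed by 0.85.

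Of 11 transcription factors and receptors that act on liver serpins 6 were higher and 0 lower, with a median of 0.53. The number higher was 1 without het-labelled liver 1, 2 without het-labelled liver 3, 3 with library size alone and 3 against wild-type livers 1 and 3 alone. Among the 6 were Stat5a at 0.54 and the interleukin 6 receptor gene Il6ra at 0.86. Of 17 genes on the acute-phase list 1, Saa4, was higher and 0 lower, with a median of 0.29. Whether Saa4 marks an acute phase in these livers was not tested. The number higher was 0 without het-labelled liver 1, het-labelled liver 3 or wild-type liver 2, 2 without wild-type liver 5, 3 without het-labelled liver 2, wild-type liver 1 or wild-type liver 4, and 6 against wild-type livers 1 and 3 alone. Saa4 had 327 ± 73.9 CPM in het-labelled and 156 ± 84.3 CPM in wild-type livers (log2 fold change 1.06), and Orm3 differed by 1.26 without passing.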

How the data were processed

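Messenger RNA of 8 mouse livers, 3 het-labelled and 5 wild-type by the genotype label, was measured by RNA sequencing. Per the labels, DNase-treated RNA went into KAPA mRNA HyperPrep libraries. Per the submitters' processing notes, the tools were bcl2fastq 2.18.0.12, STAR and HTSeq, on build mm10. The sources used here give no annotation, counting mode or strand setting. The authors deposited raw counts per gene, and RPKM values that equal the count over exon length and 1 constant per library. Unused sample columns numbered 0.

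The filter filterByExpr at its default (count 10 and total 15) left 14438 genes, which were scaled by TMM (factors 0.852 to 1.27) and tested over the whole table with edgeR's robust quasi-likelihood test, two-sided, with Benjamini-Hochberg adjustment at 0.05. Replicate pairs differed by more than sampling noise (lowest chi-square per degree of freedom 22.9), so each library counts as 1. Litters and batches are not labelled, and p-values reflect only how these samples vary, which may be technical in part. Members and lists were chosen with earlier results of these data known. Genes named are the 12 serpins with the highest mean RPKM, the 5 with the smallest edgeR p per direction, Serpina3n, Serpinh1, Serpina1e and Midn, and 2 per further list. Other serpins given with values were chosen after these were seen. Marker genes were read as sums, and some also singly after their values were seen. The result of 1 tested member is not reported here, though the counts include it. The other settings were DESeq2, RLE size factors, unscaled library sizes, all genes with a count, limma on log2 RPKM plus 0.1 or 1, each library left out, and the wild-type subsets. The tests were tried on simulated data. Versions were edgeR 4.0.16, DESeq2 1.42.0 and limma 3.58.1 in R 4.3.3, with pandas 2.3.3 and matplotlib 3.10.9 in Python 3.11.15.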

Additional observations from a re-analysis of the deposited data

Results flagged for a closer look

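In 2 clade B genes 1 wild-type liver stood far from the other 4, with a gap to the nearest of them over 0.710 of the group's range. Serpinb1a was 15.0 CPM in wild-type liver 2, against 4.53 to 7.34 CPM in the other wild-type livers. Serpinb6b was 66.2 CPM in wild-type liver 2, against 26.9 to 35.2 CPM in the others. Chance gives such a gap in about 1 in 20 groups, and 26 groups of values were looked at.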

How the results depend on the processing

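Of 528 combinations of a tested serpin gene and another setting, 505 kept the direction and the side of the threshold, 11 newly passed it (3 in DESeq2 and 8 against wild-type livers 2, 4 and 5) and 12 reversed. Members called numbered 3 in DESeq2 and 8 against wild-type livers 2, 4 and 5, and 0 when any 1 library was left out. At an unadjusted p under 0.05 the members higher, 7 in the report, were 4 with library size alone, 3 on log2 RPKM with either pseudocount and 2 to 11 with 1 library left out. Those lower, 5 in the report, were 8 in DESeq2, 8 against wild-type livers 2, 4 and 5 and 3 to 7 with 1 library left out. Library size alone moved the median of all genes to −0.18.

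The direction reversed against wild-type livers 1 and 3 for Serpina7 (1.21), Serpina6 (−0.315), Serpind1 (0.164), Serpine2 (−0.101), Serpinf2 (−0.082) and Serpina10 (0.005), and with library size alone for Serpina6 (−0.019) and Serpinf2 (−0.062). With 1 library left out Serpind1 ran from −0.182 to 0.037, Serpinf2 from −0.01 to 0.412, Serpina10 from −0.153 to 0.006 and Midn from −0.14 to 0.17. Midn, at 0.00, was also −0.041 with RLE scaling, −0.26 with library size alone, −0.032 in DESeq2 and −0.54 against wild-type livers 1 and 3. The cause was not tested. With 1 library left out the het-labelled minus wild-type share of counts, in percentage points, ran from 0.233 to 0.591 for clade A, −0.0125 to −0.00782 for clade B, 0.0652 to 0.295 for Serpina1 genes and 0.175 to 0.318 for Serpina3 genes. Genes under about 1 CPM, most of clade B, are limited by depth. No paired analysis was possible because the libraries carry no shared replicate numbers in the labels.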
